A study of Mus musculus with 19 samples.

Results

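The basement membrane and matrix remodelling genes are a fixed list of 35 symbols, all of which were found among the 39179 genes listed. They comprise 7 collagens, 9 laminin chains, 5 linkers and matrix glycoproteins, 4 tissue inhibitors of metalloproteinases, 4 proteases and 6 adhesion receptors. Every one had a count in each of the 19 libraries. No measured value entered the choice of a member, but the list was drawn up with earlier results of these data known.

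The libraries hold RNA of microvessels from the cerebrum of male C57BL/6 mice bought at 7 weeks of age. The exposures were an e-cigarette without nicotine (Nic-free, 4 libraries) or with nicotine (Nic, 3), beside a set in room air (Room-air, 4), and smoke (smoke, 4), beside a further set in room air (air, 4). Control sets were matched to exposures by title alone, since both carry the same exposure label. The labels give neither the dose and length of an exposure nor whether libraries come from separate animals. Each p-value thus sets a difference against the spread among these libraries, which may not be the spread among animals. Levels are CPM, a gene's counts scaled to the counts assigned to genes in its library, and a gene passed a test where edgeR's quasi-likelihood test gave an adjusted p below 0.05 over all genes tested.

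The vascular basement membrane is a sheet of extracellular matrix on which endothelial cells rest and in which pericytes are embedded. Networks of type IV collagen and of laminin trimers are tied together by nidogens and the heparan sulphate proteoglycan perlecan. Cells hold on to it through integrins, metalloproteinases cut it, and tissue inhibitors of metalloproteinases (TIMPs) restrain them. In brain vessels it is made by endothelial cells, pericytes and astrocytes and belongs to the blood-brain barrier.

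Counts assigned to genes were 15200536 to 19137859 per library in Nic-free, 21800157 to 28364198 in Nic, 25266790 to 30185056 in Room-air, 7939180 to 12607538 in smoke and 9761373 to 13490373 in air. All 15 endothelial markers reached 1 CPM in at least 1 library, and they summed to 0.13 to 0.492% of counts over the 19 libraries. Neuron markers summed to 0.582 to 1.06% and oligodendrocyte markers to 0.923 to 3.19%. In such bulk samples fewer cells of a type and less RNA per cell cannot be told apart. Reads with no feature were 38.9 to 45.2% in Nic-free, 33.0 to 38.4% in Nic and 28.7 to 33.4% in Room-air, and 28.9 to 33.2% in smoke and 33.6 to 37.5% in air. Nic-free thus lay above both Room-air and Nic, smoke below air and air above Room-air, without overlap. The part of this share in the members' values was not tested in any comparison. Choroid plexus and ependymal markers varied most, between 0.0883% in Nic-free 4 and 2.69% in smoke 3.

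Promoter windows of 6 members are printed because the results turn on these genes. Timp3, Cd151, Hspg2 and Lamb2 are the members that passed in smoke against air. Col4a2 passed in Nic-free against Room-air with either control set, and its 5′ end shares 22 bases with that of Col4a1 on the opposite strand. Col4a4 lies head to head with Col4a3, with 71 bases between their 5′ ends, and that pair was the most variable of the list in relative terms. Each window runs from 250 bases before the gene's start to 50 after it (RefSeq, GRCm38.p6), and GC boxes, GGGCGG or its complement CCGCCC, are in capitals.
Timp3: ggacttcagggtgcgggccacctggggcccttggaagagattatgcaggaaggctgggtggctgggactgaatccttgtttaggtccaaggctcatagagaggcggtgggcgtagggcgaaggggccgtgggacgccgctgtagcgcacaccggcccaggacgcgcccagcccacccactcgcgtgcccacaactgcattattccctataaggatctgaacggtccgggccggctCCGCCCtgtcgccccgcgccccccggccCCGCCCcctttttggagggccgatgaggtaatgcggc
Cd151: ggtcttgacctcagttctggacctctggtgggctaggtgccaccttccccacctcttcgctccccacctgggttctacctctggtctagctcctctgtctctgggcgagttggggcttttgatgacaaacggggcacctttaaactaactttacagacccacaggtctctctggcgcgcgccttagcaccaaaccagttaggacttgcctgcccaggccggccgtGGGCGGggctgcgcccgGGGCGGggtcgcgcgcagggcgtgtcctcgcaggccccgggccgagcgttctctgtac
Hspg2: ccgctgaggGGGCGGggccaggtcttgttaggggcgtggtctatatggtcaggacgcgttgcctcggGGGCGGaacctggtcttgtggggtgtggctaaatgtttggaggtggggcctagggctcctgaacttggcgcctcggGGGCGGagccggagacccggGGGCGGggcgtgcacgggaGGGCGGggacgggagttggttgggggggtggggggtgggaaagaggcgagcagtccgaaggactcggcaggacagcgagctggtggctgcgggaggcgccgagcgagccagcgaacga
Lamb2: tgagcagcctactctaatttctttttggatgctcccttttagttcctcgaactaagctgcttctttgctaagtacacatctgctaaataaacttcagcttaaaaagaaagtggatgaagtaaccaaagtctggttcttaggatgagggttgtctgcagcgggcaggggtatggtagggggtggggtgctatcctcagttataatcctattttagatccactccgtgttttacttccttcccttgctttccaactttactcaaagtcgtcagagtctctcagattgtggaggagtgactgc
Col4a2: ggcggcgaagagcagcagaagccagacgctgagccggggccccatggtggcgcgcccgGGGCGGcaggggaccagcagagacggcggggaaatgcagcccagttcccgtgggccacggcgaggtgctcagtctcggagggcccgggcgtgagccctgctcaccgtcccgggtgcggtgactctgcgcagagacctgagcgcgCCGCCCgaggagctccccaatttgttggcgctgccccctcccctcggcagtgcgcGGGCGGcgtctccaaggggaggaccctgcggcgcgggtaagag
Col4a4: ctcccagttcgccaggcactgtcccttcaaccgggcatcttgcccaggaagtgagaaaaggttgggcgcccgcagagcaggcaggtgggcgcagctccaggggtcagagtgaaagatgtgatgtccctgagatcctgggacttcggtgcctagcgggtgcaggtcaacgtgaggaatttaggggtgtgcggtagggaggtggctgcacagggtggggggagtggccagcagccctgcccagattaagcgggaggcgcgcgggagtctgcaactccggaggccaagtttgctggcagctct
These windows lie at chr10:86300162-86300461, plus strand (Timp3), chr7:141467112-141467411, plus strand (Cd151), chr4:137468553-137468852, plus strand (Hspg2) and chr9:108479612-108479911, plus strand (Lamb2). Those of the collagens are at chr8:11312555-11312854, plus strand (Col4a2) and chr1:82586800-82587099, minus strand (Col4a4). The Hspg2 window holds 5 GC boxes, that of Col4a2 3, and those of Timp3 and Cd151 2 each. Cd151 has a further entry, at chr7:141468539-141468838, plus strand, which holds 0 GC boxes and is not printed. No GC box stands in the Lamb2 and Col4a4 windows. The Col4a2 window also holds a CCAAT box (CCAAT or ATTGG), apart from its GC boxes, and the other 5 do not. Over both strands 35.9% of 32544 promoter windows hold a GC box and 37.4% a CCAAT box. The table has an entry for 23 members, of which 17 have a GC box and 9 a CCAAT box in an entry. Col4a3, Lama1, Lama3, Lama4, Lamc1, Lamc3, Nid2, Fn1, Mmp2, Mmp9, Itga6 and Itgb4 have no entry.

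Levels between genes are compared as CPM per kb of exon, using the union of a gene's annotated exons. Sparc, a glycoprotein that binds collagen and is secreted by vessels, stood first with a mean of 163 CPM per kb over the 19 libraries (range 110.4 to 229). Timp2, an inhibitor of metalloproteinases, followed at 61.5 (45.5 to 88.2). Then came Col4a2 at 42.3, Itgb1 at 38.8, Timp3 at 38.1, Col4a1 at 28.8, Lamb2 at 28.1 and Cd151 at 23.2 CPM per kb. The ranges of neighbours in this order overlap, except that every value of Sparc lay above every value of Timp2.

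Among the chains of the laminin trimer, Lamb2 stood above Lama5 at 10.2 CPM per kb and Lamc1 at 9.02. The other alpha chains were lower, at 2.08 (Lama3), 2.04 (Lama4), 1.69 (Lama1) and 1.52 (Lama2), as were Lamb1 at 4.83 and Lamc3 at 3.83. Of the integrin chains Itgb1, which pairs with many alpha chains, stood above Itga6 at 8.82, Itgb4 at 4.46, Itga5 at 3.97 and Itga1 at 1.16 CPM per kb. The lowest were Mmp9, a gelatinase known from neutrophils and activated vessels, at 0.483 (0.260 to 0.774), Col4a4 at 0.869 and Timp1, an inhibitor induced by injury, at 0.905. Of 10 neutrophil and monocyte markers, summed levels did not exceed 0.0015% of counts in any library.

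**Figure D1:**
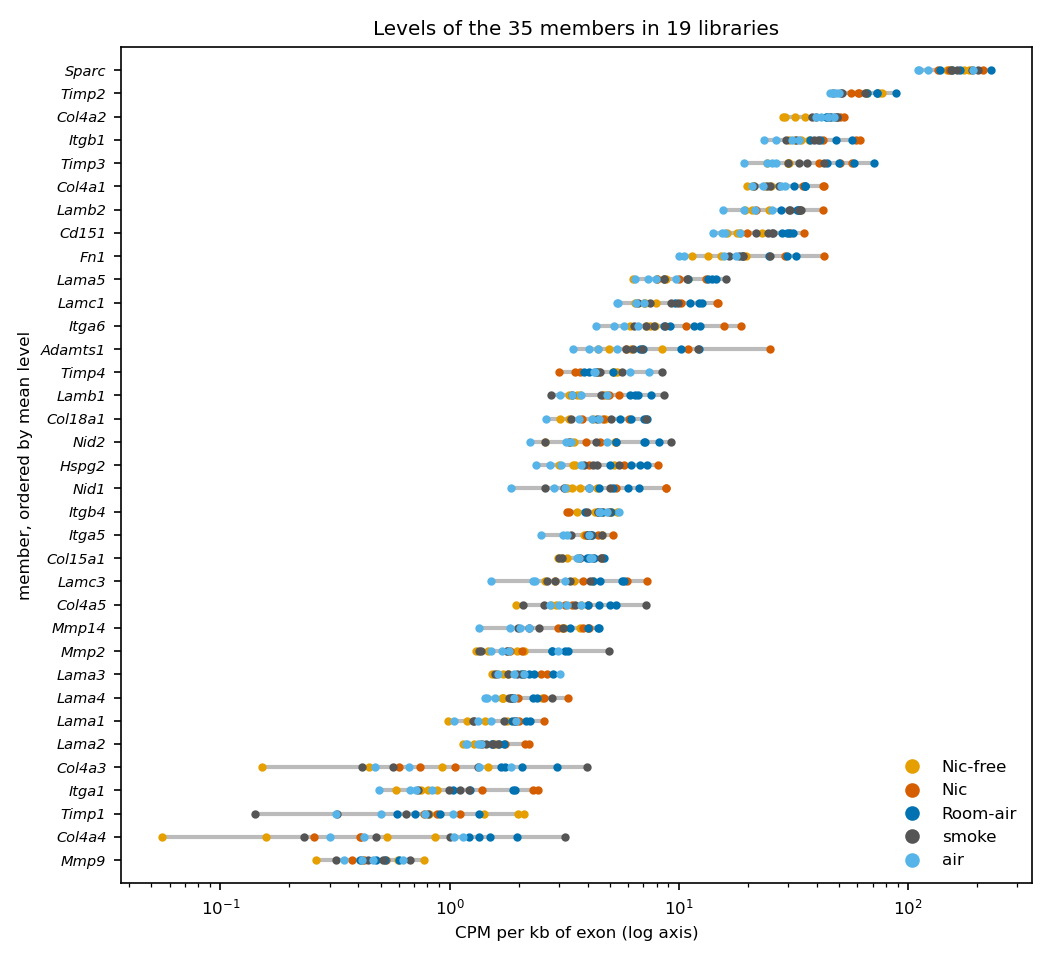
Level of each member per kb of exon (log axis) in the 19 libraries, 1 point per library coloured by group and a grey bar for the range. Sparc lies above all other members, with a mean of 163 CPM per kb, and Col4a3, Col4a4 and Timp1 have the widest relative ranges.

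Nic-free was set against Room-air first, the comparison of the e-cigarette without nicotine with room air. Of the 35 members 20 were lower in Nic-free than in Room-air, where 10.4% of the 17235 genes tested were lower and 21.8% passed in either direction. With edgeR 0 members rose, beside 2 higher at an unadjusted p below 0.05 (Timp1 and Timp4) and 0 with DESeq2. The median log2 fold change was −0.54 over the members and 0.00 over all genes. The falls were mostly in 4 classes, with 5 of 7 collagens, 5 of 9 laminin chains, 4 of 5 linkers and 4 of 6 receptors. Of the inhibitors and of the proteases 1 of 4 each fell, 25% beside the 21.8% of all genes called. The inhibitors had a median log2 fold change of 0.11. The calls in Nic-free rest on the control set, since with the air set in its place 1 member was lower and 2 were higher. There 1.27% of genes were lower, 2.95% higher and 4.22% passed in either direction.

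Col4a1 and Col4a2 encode the chains of the main type IV collagen of vessels. Col4a1 had 148, 177, 188 and 158 CPM in Nic-free 1 to 4, 317, 259.5 and 321 CPM in Nic 1 to 3 and 266, 264, 266 and 238 CPM in Room-air 1 to 4. Every Nic-free library lay below every Room-air and Nic library. The log2 fold change of Col4a1 (ENSMUSG00000031502, chr8:11198423-11312826) in Nic-free was −0.57 ± 0.10 (adjusted p 0.00162). Col4a2 had 188, 212, 236 and 193 CPM in Nic-free 1 to 4, 335, 317 and 346 CPM in Nic 1 to 3 and 293, 323, 291 and 304 CPM in Room-air 1 to 4. The Nic-free libraries held the 4 lowest values of all 19 libraries. Col4a2 (ENSMUSG00000031503, chr8:11312805-11449287) changed by −0.50 ± 0.09 (adjusted p 0.00218). It also fell against the air set, by 0.47 (adjusted p 0.008), and passed in all 17 alternatives, at −0.56 to −0.46, the only member of this comparison to do so.

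The other collagens that fell were Col18a1 (−0.71, adjusted p 0.00813), whose fragment endostatin restrains vessel growth, Col4a5 (−0.68, adjusted p 0.0109) and Col15a1 (−0.35, adjusted p 0.0139). Col4a3 and Col4a4, chains of the collagen network best known from the kidney filter, had the lowest estimates but did not pass. Col4a3 had 14.6, 9.25, 4.44 and 1.51 CPM in Nic-free 1 to 4, 5.96, 10.6 and 7.40 CPM in Nic 1 to 3 and 20.6, 16.7, 29.3 and 17.3 CPM in Room-air 1 to 4. Col4a4 had 9.14, 5.65, 1.67 and 0.592 CPM in the same Nic-free libraries, 2.71, 4.32 and 4.34 in Nic and 15.9, 14.3, 20.9 and 12.9 in Room-air. Both were below every Room-air value in all Nic-free and Nic libraries, and these 2 genes were picked for this after their values were seen. Their log2 fold changes in Nic-free were −1.44 ± 0.52 (adjusted p 0.0812) and −1.86 ± 0.58 (adjusted p 0.0503).

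Choroid plexus and ependymal markers moved with these collagens across libraries. Their summed share was 1.86, 0.758, 0.445 and 0.0883% of counts in Nic-free 1 to 4, against 1.77, 1.94, 2.27 and 2.50% in Room-air 1 to 4. Nic-free 4, with the lowest share, had the lowest Col4a3 and Col4a4, and smoke 3, with the highest share, had the highest, 39.5 and 33.8 CPM. Col4a1 did not follow that order, with 186 CPM in smoke 3 and 158 CPM in Nic-free 4. Other members that fell in Nic-free differed between these libraries. Lamb1, Nid2, Col4a5 and Col18a1 had 85.1, 47.7, 48.5 and 50.2 CPM in smoke 3. They had 47.6, 27.2, 25.1 and 33.5 CPM in Nic-free 1 and 33.0, 13.4, 13.1 and 21.2 CPM in Nic-free 4. The remaining members were not set beside the marker share. Of the 13 choroid and ependymal markers 2 were lower in Nic-free, and their median log2 fold change was −1.46. Their part in the values of the members was not tested.

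**Figure D2:**
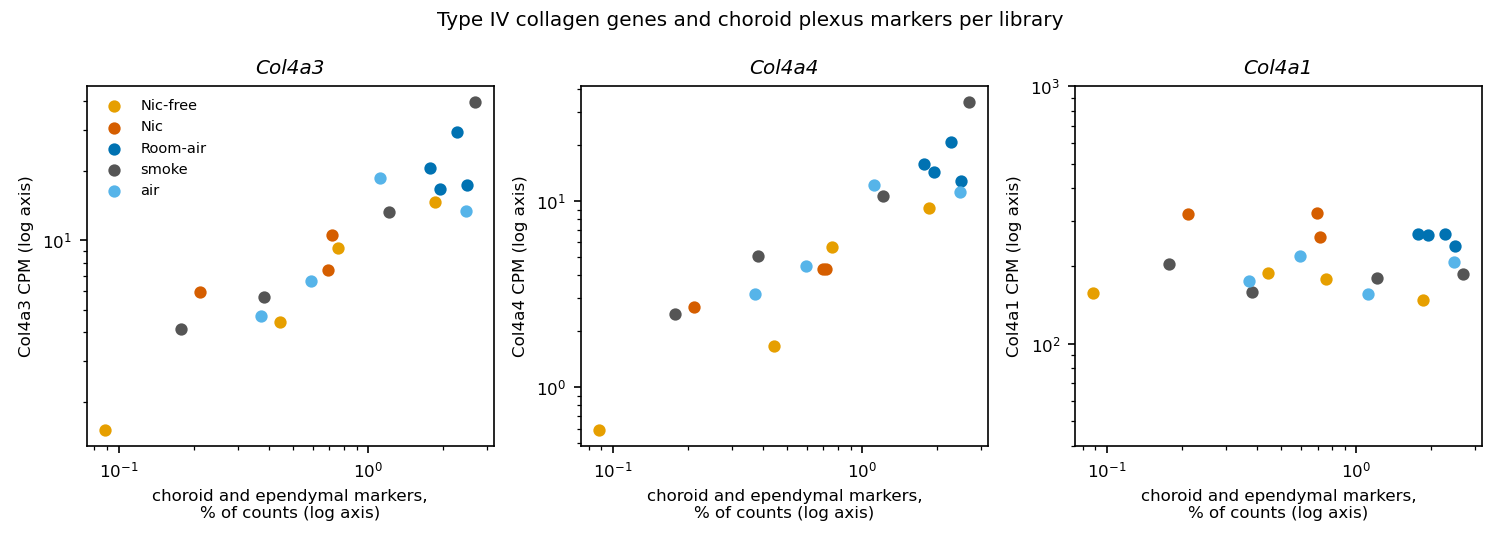
CPM of Col4a3, Col4a4 and Col4a1 (log axis) against the summed share of 13 choroid plexus and ependymal markers in percent of counts (log axis), 1 point per library coloured by group. Col4a3 and Col4a4 run from 1.51 and 0.592 CPM in Nic-free 4 to 39.5 and 33.8 CPM in smoke 3 along the marker share, and Col4a1 stays between 148 and 321 CPM.

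Of the laminin chains Lamb1 fell (−0.74, adjusted p 0.000969), as did Lamc1 (−0.63, adjusted p 0.00283), Lama3 (−0.45, adjusted p 0.0126), Lama1 (−0.55, adjusted p 0.0234) and Lama5 (−0.58, adjusted p 0.0281), the last an alpha chain of endothelial basement membranes. Lamc1 had 58.2, 53.1, 65.8 and 58.7 CPM in Nic-free 1 to 4, 123, 84.6 and 121 CPM in Nic 1 to 3 and 105, 92.5, 101 and 79.6 CPM in Room-air 1 to 4. Lamc1 (ENSMUSG00000026478, chr1:153218922-153332786), the gamma chain of most laminins, was thus lower in every Nic-free library than in any Room-air or Nic library. Lamc3 at −0.56 (adjusted p 0.0566), Lamb2 at −0.31, Lama2 at −0.22 and Lama4 at −0.09 did not pass.

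Among the linkers the nidogens, which join laminin to collagen IV, were both lower, Nid2 at −0.86 (adjusted p 0.00815) and Nid1 at −0.54 (adjusted p 0.0313). Nid1 had 22.6, 25.7, 30.4 and 23.8 CPM in Nic-free 1 to 4, 61.1, 36.8 and 61.2 CPM in Nic 1 to 3 and 46.4, 31.2, 41.5 and 35.7 CPM in Room-air 1 to 4. All 4 Nic-free values of Nid1 (ENSMUSG00000005397, chr13:13437551-13512269) were below the Room-air range, with Nic-free 3 close to Room-air 2. Fn1, fibronectin, at −0.77 (adjusted p 0.0471) and Hspg2, perlecan, at −0.68 (adjusted p 0.0397) passed narrowly. Sparc did not pass (adjusted p 0.991).

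Of the inhibitors Timp3, which is bound to the matrix, fell. Timp3 had 244, 246, 244 and 197 CPM in Nic-free 1 to 4, 411, 332 and 463 CPM in Nic 1 to 3 and 471, 361, 577 and 407 CPM in Room-air 1 to 4. The Nic-free values are tight in 3 libraries and lower in Nic-free 4, and all lie below every Nic and Room-air value. Timp3 (ENSMUSG00000020044, chr10:86300372-86349506) changed by −0.91 ± 0.14 (adjusted p 0.00102). Its exons overlap those of Syn3 on the opposite strand over 21.3% of their length, and whether counting used strand is not known. Syn3 had 1587 counts in all libraries together and Timp3 118637. Nid2 shares 8.4% of its exons with Rtraf, with 9055 counts against 11310 for Rtraf. Timp4 shares 1.5% with Syn2, with 9342 counts against 58941 for Syn2. The part of these overlaps in the values was not tested. Timp1 at 0.91 (adjusted p 0.0524), Timp4 at 0.27 (adjusted p 0.0849) and Timp2 at −0.04 (adjusted p 0.815) did not pass, but Timp1 passed in 4 of 17 alternatives. Timp1 ranged from 0.724 to 1.88 CPM in Nic-free and 0.525 to 1.19 CPM in Room-air.

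Mmp2, a gelatinase that cuts collagen IV, was the protease that fell. Mmp2 had 6.64, 4.97, 7.11 and 4.41 CPM in Nic-free 1 to 4, 6.19, 6.003 and 6.98 CPM in Nic 1 to 3 and 9.44, 9.45, 11.1 and 10.7 CPM in Room-air 1 to 4. Room-air values were the higher ones in every pairing with a Nic-free or a Nic library. Mmp2 (ENSMUSG00000031740, chr8:92827291-92853420) changed by −0.76 ± 0.15 (adjusted p 0.00346) in Nic-free. Adamts1, which cuts proteoglycans, at −0.54 (adjusted p 0.419), Mmp14, a membrane-bound protease that activates Mmp2, at −0.17 (adjusted p 0.361) and Mmp9 at 0.08 (adjusted p 0.866) did not pass.

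The integrin chains that fell are parts of receptors for laminin or collagen. Itga1 had 13.9, 14.9, 16.4 and 10.9 CPM in Nic-free 1 to 4, 42.9, 25.8 and 45.3 CPM in Nic 1 to 3 and 35.2, 22.8, 36.02 and 19.3 CPM in Room-air 1 to 4. Itga1 (ENSMUSG00000042284, chr13:114953096-115101964), a collagen- and laminin-binding chain, was below both other groups in all 4 Nic-free libraries and changed by −0.96 ± 0.23 (adjusted p 0.0133). Itga6 had 64.9, 67.2, 71.1 and 55.1 CPM in Nic-free 1 to 4, 169, 96.5 and 143 CPM in Nic 1 to 3 and 105, 82.97, 112 and 77.4 CPM in Room-air 1 to 4. Here too the Nic-free range ended below the others, and Itga6 (ENSMUSG00000027111, chr2:71745616-71858416), a laminin-binding chain, changed by −0.49 ± 0.16 (adjusted p 0.0391). Itgb1 had 139, 131, 151 and 123 CPM in Nic-free 1 to 4, 253, 174 and 242 CPM in Nic 1 to 3 and 199, 153, 233 and 168 CPM in Room-air 1 to 4. Nic-free 3 came close to Room-air 2 but the ranges did not overlap. Itgb1 (ENSMUSG00000025809, chr8:128685654-128733200), their common partner, changed by −0.42 ± 0.14 (adjusted p 0.0405).

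Cd151, a tetraspanin that accompanies laminin-binding integrins, also fell. Cd151 had 48.9, 50.7, 63.4 and 44.3 CPM in Nic-free 1 to 4, 83.5, 54.3 and 96.4 CPM in Nic 1 to 3 and 82.7, 86.2, 81.3 and 77.3 CPM in Room-air 1 to 4. Room-air was uniform and above all Nic-free libraries, while Nic 2 fell within the Nic-free range. The change of Cd151 (ENSMUSG00000025510, chr7:141467392-141471473) was −0.61 ± 0.15 (adjusted p 0.0122). Itga5, a fibronectin receptor chain, at 0.07 and Itgb4, which pairs with Itga6, at 0.07 did not pass.

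In all, the Nic-free and Room-air ranges did not overlap for 20 members, always with Nic-free below. Such a count was not made over all genes. The 20 members include Col4a3, Col4a4 and Lamc3, which did not pass, and leave out Lama5, Hspg2 and Fn1, which did. With 1 library left out, the count of members lower was 13 without Room-air 1 or Room-air 3 and up to 21 otherwise. Of the members lower, Fn1 lost its call in 10 of 17 alternatives, Hspg2 in 9, Nid1, Lama5 and Itga6 in 7 each, Itgb1 in 6 and Lama1 in 5. Of 15 endothelial markers 5 were lower, with a median log2 fold change of −0.41 and sums of 0.197 to 0.298% of counts in Nic-free against 0.236 to 0.347% in Room-air. Pericyte markers had a median of −0.18, with 1 of 10 lower, and fibroblast and meningeal markers a median of −0.18, with 1 of 10 lower. Neuron markers were higher in 9 of 12 (median 0.53), oligodendrocyte markers in 5 of 8 and microglia markers in 5 of 9, and astrocyte markers were higher in 5 and lower in 1 of 9. The part of these in the members' falls was not tested.

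**Figure D3:**
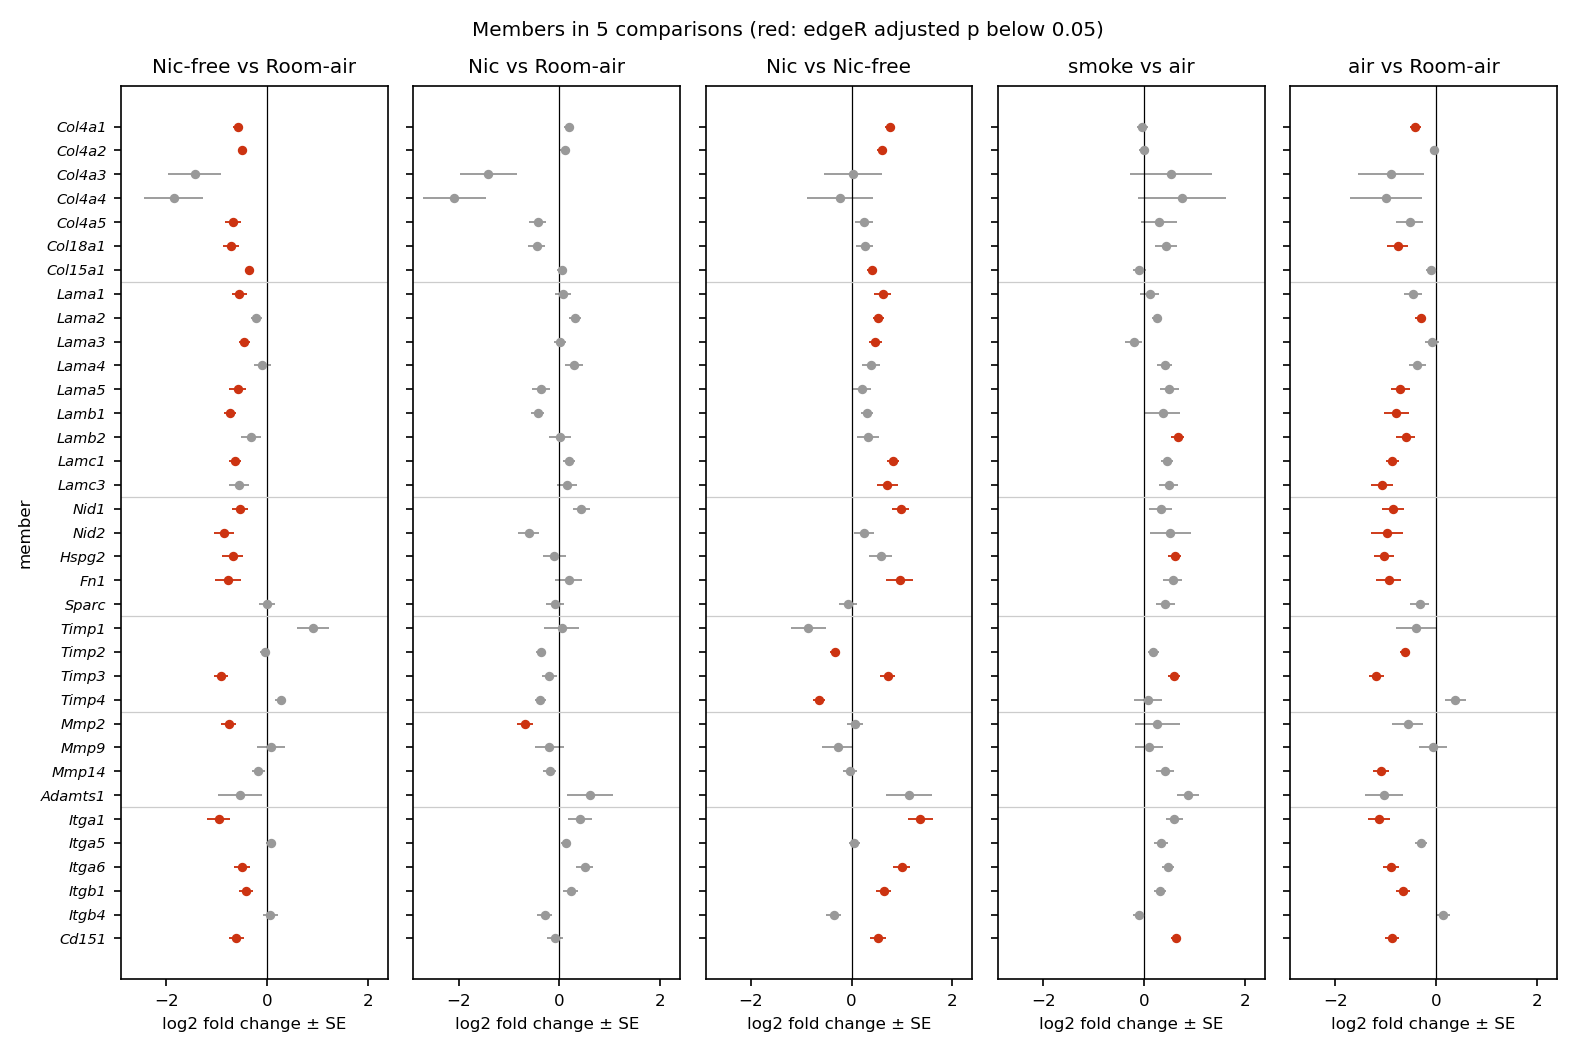
Log2 fold change with its standard error for the 35 members (rows, by class) in 5 comparisons (panels), red where the edgeR adjusted p is below 0.05. Red points lie left of 0 for 20 members in Nic-free against Room-air and for 19 in air against Room-air, and right of 0 for 15 in Nic against Nic-free and 4 in smoke against air.

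Beyond the members, other basement membrane genes were lower in 4 of 18, with Dag1, the laminin receptor dystroglycan, at −0.85 and Tinagl1 at −1.14. Other matrix genes were lower in 5 of 30 and higher in 1, led by Fbn1, fibrillin, at −0.71, Ncan, a brain proteoglycan, at 0.41 and Postn at −0.57. Of 14 genes for collagen processing 3 were lower, P4ha2, a prolyl hydroxylase of collagen (−0.71), Loxl2, a cross-linking oxidase (−1.29), and Crtap (−0.52). Other proteases and inhibitors were lower in 6 of 28 tested and higher in 2, led by Plat, tissue plasminogen activator (−1.03), Mmp23 (−0.92) and Mmp15 (−0.61). Other adhesion receptors were lower in 8 of 25 tested, led by Itga10 (−0.56), Vcl (−0.38), which encodes vinculin of focal adhesions, and Itga3 (−0.45). The share called was at most 32.0% in these lists, beside 21.8% of all genes and 57.1% of the members.

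The e-cigarette with nicotine was set against the same Room-air libraries, so both comparisons share their controls. A single member passed, Mmp2 at −0.69 ± 0.16 (adjusted p 0.032), lower in Nic with 6.19, 6.00 and 6.98 CPM against 9.44 to 11.1 CPM in Room-air. It is 1 of 35 members where 2.67% of genes were lower, 1.22% higher and 3.89% in either direction. With edgeR 0 members rose, with 3 higher at an unadjusted p below 0.05 (Lama2, Nid1 and Itga6) and 0 with DESeq2. The median over the members was 0.01, against 0.03 over all genes. Mmp2 lost its call in 8 of 17 alternatives, among them without each of the 4 Room-air libraries, Nic 1 and Nic 2 in turn. Without Room-air 1 to 4 in turn, 0.653, 0, 2.1 and 1.9% of all genes passed in either direction. Without Nic 1 and without Nic 2 these shares were 0 and 2.44%. Without Nic 3 there were 7 members lower, without Nic-free 1 4 and without Nic-free 4 2. Of all genes 17.1, 5.36 and 4.51% passed in either direction in these 3 fits.

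The collagens stood apart by gene, with values given here without a call. Col4a1 stood at 0.19 (adjusted p 0.286) and Col4a2 at 0.11 (adjusted p 0.506), but Col18a1 at −0.45 (adjusted p 0.13), Col4a3 at −1.41 (adjusted p 0.167) and Col4a4 at −2.08 (adjusted p 0.0917). Nid1 and Nid2, closely related linkers, stood at 0.43 (adjusted p 0.142) and −0.61 (adjusted p 0.0955). Of the receptors Itga6 was at 0.51 (adjusted p 0.0907) and Itga1 at 0.41 (adjusted p 0.319), with Nic 1 and Nic 3 above every Room-air library for both and Nic 2 within the Room-air range. Nic 2 was the lowest of the Nic libraries for Lamc1, Nid1, Hspg2, Fn1, Timp3 and Cd151 as well, and for most other members. The ranges of Nic and Room-air overlapped for 27 of 35 members, and this was not counted over all genes.

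Endothelial markers had a median log2 fold change of 0.37 in Nic, with sums of 0.259 to 0.492% of counts against 0.236 to 0.347% in Room-air, and choroid and ependymal markers one of −1.78, and their part was not tested. With the air set as control 17 members rose and 2 fell, where 15.3 and 14.6% of genes did and 30.0% did in either direction, with Itga1 at 1.52 (adjusted p 0.000226), Itga6 at 1.38 (adjusted p 3.19e-05) and Timp3 at 0.97 (adjusted p 0.0002). In the other lists, the calls against Room-air were Fbln1, a basement membrane glycoprotein (−0.63), of 18 other basement membrane genes, and 3 higher and 3 lower of 25 other adhesion receptors tested. These receptors were led by Itga8 (0.56), Vcl (0.38) and Itga4 (0.45).

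Nic was compared with Nic-free directly, which needs no control set but shares the Nic-free libraries with the first comparison. In Nic 15 members were higher and 2 lower, where 12.4% of genes were higher, 12.4% lower and 24.8% passed in either direction. The median over the members was 0.39, against 0.02 over all genes. By class, 3 of 7 collagens, 5 of 9 laminin chains, 2 of 5 linkers, 1 of 4 inhibitors and 4 of 6 receptors were higher, and 2 of 4 inhibitors lower.

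Type IV collagen chains were higher in Nic, Col4a1 by 0.76 ± 0.10 (adjusted p 0.000353) and Col4a2 by 0.61 ± 0.10 (adjusted p 0.000763), with no overlap in either gene. They averaged 299 ± 34.4 and 332 ± 14.9 CPM in Nic (SD, n = 3) and 168 ± 18.4 and 207 ± 21.7 CPM in Nic-free (SD, n = 4). Col15a1 was higher too (0.40, adjusted p 0.00785). Of the laminins Lamc1 was higher by 0.82 ± 0.13 (adjusted p 0.000702), and Lamc3 (0.71), Lama1 (0.62), Lama2 (0.53) and Lama3 (0.47) also passed. Lamb1 (0.31), Lamb2 (0.32), Lama4 (0.39) and Lama5 (0.21) did not pass.

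The largest difference with a call was that of a receptor. Itga1 was higher by 1.36 ± 0.24 (adjusted p 0.00237) and Itga6 by 1.00 ± 0.17 (adjusted p 0.00127), with Itgb1 at 0.64 (adjusted p 0.00591) and Cd151 at 0.52 (adjusted p 0.0307). Nid1 was higher by 0.97 ± 0.17 (adjusted p 0.00174) and Fn1 by 0.96 ± 0.27 (adjusted p 0.0231). The inhibitors moved apart, Timp3 higher by 0.72 ± 0.15 (adjusted p 0.00396) and Timp4 lower by 0.64 ± 0.12 (adjusted p 0.00168), with Timp2 at −0.33 (adjusted p 0.0344). Timp4, known from brain and heart, had 17.7, 20.8 and 21.8 CPM in Nic 1 to 3 and 26.5, 30.5, 30.8 and 31.6 CPM in Nic-free 1 to 4, again without overlap. The proteases did not pass, with Adamts1 at 1.14 (adjusted p 0.106) and 132 CPM in Nic 3 against 31.1 and 58.1 CPM in the other Nic libraries.

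Leaving out a library gave 11 to 19 members higher. Of the 17 calls, those of Col4a1, Col4a2, Col15a1, Lama2, Lama3, Lamc1, Nid1, Timp3, Timp4, Itga1, Itga6 and Itgb1 held in all 16 alternatives, and Cd151, Fn1, Lamc3, Lama1 and Timp2 lost theirs in 1 to 6. Endothelial markers were higher in 9 of 15 (median 0.83), pericyte markers in 5 of 10 (median 0.52), and neuron markers lower in 8 of 12 (median −0.61), astrocyte markers in 6 of 9 (median −0.37) and oligodendrocyte markers in 6 of 8 (median −0.64). Their part was not tested.

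Of the other lists, 5 of 18 other basement membrane genes were higher, led by Hmcn1 (1.00), Dag1 (0.67) and Fbln2 (0.58), and 7 of 30 other matrix genes, led by Col12a1 (0.56), Fbn2 (0.53) and Col14a1 (0.61). Collagen processing genes were higher in 5 of 14, led by P4ha2 (0.87) and P4ha1 (0.68), both prolyl hydroxylases, and Plod1 (0.62), a lysyl hydroxylase. Other proteases and inhibitors were higher in 7 and lower in 2 of 28 tested, led by Plat (1.31), Mmp23 (1.10) and Adam17 (0.49). Other adhesion receptors were higher in 4 and lower in 2 of 25 tested, led by Vcl (0.75), Itga10 (0.72) and Itga8 (0.50). The background was 24.8%.

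**Figure D4:**
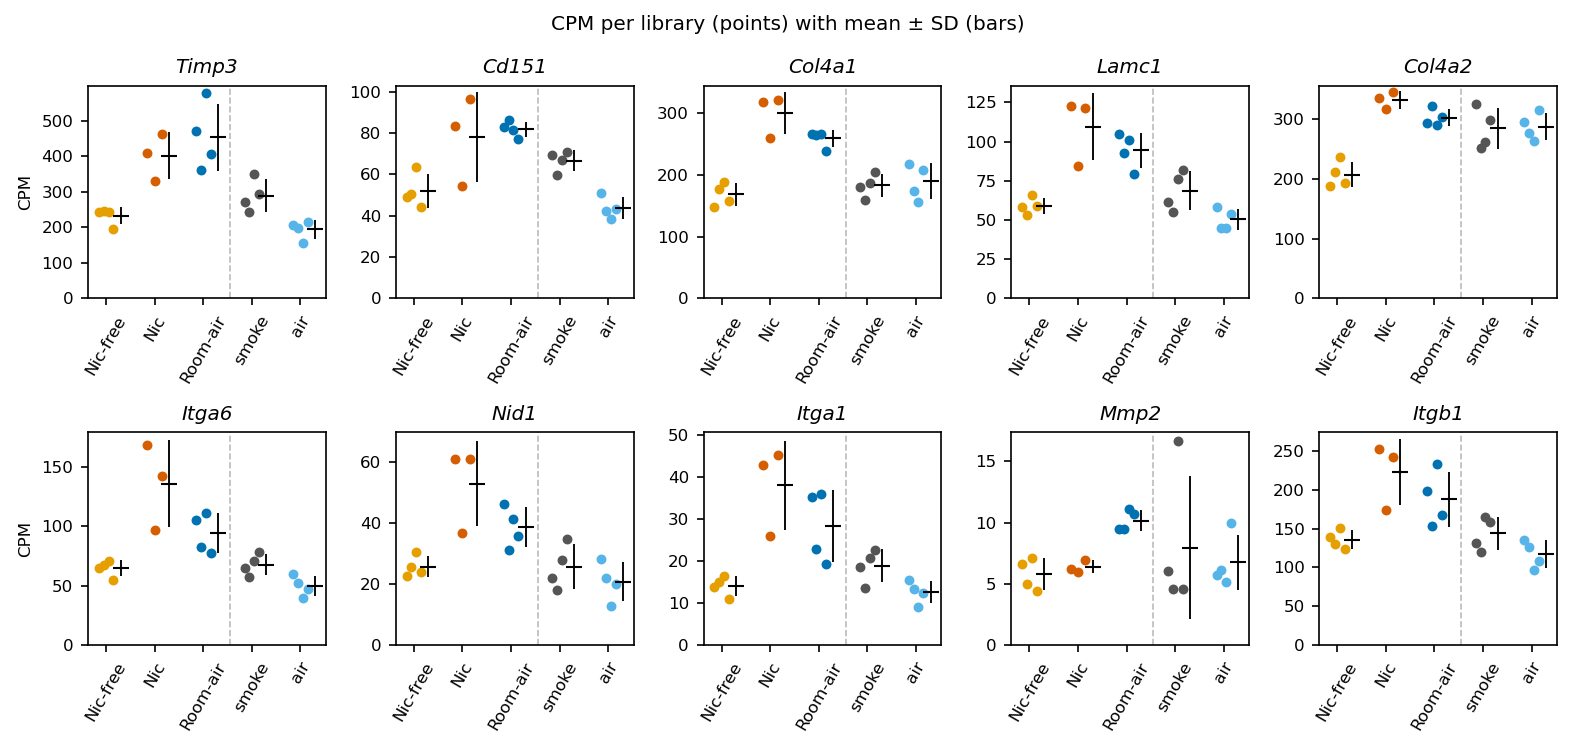
CPM of the 10 members with values given per library, as points by group with mean ± SD bars beside them, and a dashed line between Room-air and smoke. For Col4a2 the Nic-free points, at 188 to 236 CPM, lie below all others, and for Timp3 the smoke points, at 243 to 351 CPM, lie above the air points at 157 to 216 CPM.

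Smoke was set against the air libraries. Of 34 members tested 4 were higher, where 1.08% of 15232 genes were higher and 1.60% passed in either direction, and Timp1 was too low to be tested. With edgeR 0 members were lower, also 0 at an unadjusted p below 0.05 and 0 with DESeq2. The 4 are Cd151, Lamb2, Timp3 and Hspg2, from 4 different classes, and their promoter windows are printed above. The median over the members tested was 0.42, against 0.02 over all genes.

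Cd151 had 69.6, 59.6, 66.8 and 70.7 CPM in smoke 1 to 4 and 50.8, 42.1, 38.5 and 43.5 CPM in air 1 to 4. Every smoke value was above every air value, and the difference was 0.63 ± 0.09 (adjusted p 0.0241). Timp3 had 272, 243, 351 and 294 CPM in smoke and 207, 198, 157 and 216 CPM in air, with smoke 3 the highest. Its ranges did not overlap either, and it differed by 0.59 ± 0.12 (adjusted p 0.0443). Lamb2, a laminin beta chain of mature vessels (ENSMUSG00000052911, chr9:108479736-108490530), had 186, 203, 184 and 208 CPM in smoke and 156, 130.1, 94.96 and 118 CPM in air, with smoke uniform and air 3 lowest. It differed by 0.67 ± 0.13 (adjusted p 0.0387). Hspg2 (ENSMUSG00000028763, chr4:137468769-137570630) had 60.2, 55.3, 78.3 and 63.1 CPM in smoke and 53.6, 39.3, 34.2 and 43.8 CPM in air, close to touching between smoke 2 and air 1, and differed by 0.61 ± 0.13 (adjusted p 0.0461).

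These calls depended on single libraries, as did those of all genes. Without air 2, air 3, air 4, smoke 1 or smoke 4 no member passed (edgeR, 0 in each case). In these fits 0.0323, 0.0196, 0.11, 0.00645 and 0.072% of all genes passed in either direction, against 1.6% with every library. Without smoke 2 or smoke 3 there were 1 and 2 members, where 0.399 and 0.872% of all genes passed. DESeq2 called 9 members higher, where it called 6.07% of all genes in either direction. With edgeR 17 were higher at an unadjusted p below 0.05, a count not made over all genes. With the Room-air set as control 0 members were higher and 4 lower, where 3.54 and 2.66% of genes were and 6.20% passed in either direction, among them Timp3 at −0.60 (adjusted p 0.0199) and Col4a1 at −0.46 (adjusted p 0.0194).

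The collagen IV chains of vessels did not pass. Col4a1 had 180.4, 159, 186 and 204 CPM in smoke 1 to 4 and 218, 174, 156 and 208 CPM in air 1 to 4. Col4a2 had 325, 252, 262 and 299 CPM in smoke 1 to 4 and 296, 276, 263 and 316 CPM in air 1 to 4. The groups overlapped fully for both, and their differences were −0.03 ± 0.11 (adjusted p 0.907) and 0.00 ± 0.11 (adjusted p 0.992). For Lamc1, smoke had 61.7, 55.04, 76.1 and 81.7 CPM and air 58.3, 44.97, 44.6 and 53.8 CPM, and for Nid1, smoke had 21.9, 18.01, 28.03 and 34.8 CPM and air 28.2, 22.1, 12.9 and 19.9 CPM. Lamc1 at 0.46 (adjusted p 0.0794) and Nid1 at 0.33 (adjusted p 0.474) did not pass, with smoke 1, smoke 3 and smoke 4 above all air libraries for Lamc1. Adamts1 at 0.88 (adjusted p 0.0794) had no overlap between smoke, at 31.1 to 64.5 CPM, and air, at 18.4 to 28.4 CPM, but did not pass.

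Of the receptors, Itga6 had 65.03, 57.3, 70.4 and 78.5 CPM in smoke and 59.7, 52.1, 39.2 and 47.1 CPM in air and stood at 0.47 (adjusted p 0.0688). Itga1 had 18.5, 13.5, 20.7 and 22.7 CPM in smoke and 15.6, 13.2, 9.12 and 12.4 CPM in air, at 0.61 (adjusted p 0.0864). Itgb1 had 132, 119.9, 165 and 159 CPM in smoke and 136, 127, 96.1 and 109 CPM in air, at 0.32 (adjusted p 0.173). In each of the 3 the groups overlapped in 1 or more libraries, with air 3 the lowest library. Mmp2 had 6.02, 4.53, 16.6 and 4.60 CPM in smoke and 5.70, 6.15, 5.11 and 9.996 CPM in air, so that smoke 3 stood apart, and its difference was 0.27 ± 0.44 (adjusted p 0.786).

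Smoke 3 was also the highest of the 19 libraries for Col4a3, Col4a4, Col4a5 (48.5 CPM), Lama5 (182 CPM), Lamb1 (85.1 CPM), Nid2 (47.7 CPM) and Mmp2 (16.6 CPM). It had the highest share of choroid and ependymal markers, 2.69% of counts, against 0.178 to 1.21% in the other smoke libraries, and their part in these values was not tested. Without smoke 3 the members higher in smoke were 2, where 0.872% of all genes passed in either direction. Endothelial markers summed to 0.238 to 0.314% of counts in smoke against 0.13 to 0.24% in air, with a median log2 fold change of 0.59 and 2 of 15 higher, and their part was not tested. Pericyte markers had a median of 0.39.

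In the other lists Dag1 (0.58) was higher of 18 other basement membrane genes, and Bcam, a laminin receptor (0.64), and Tln1, talin (0.50), of 24 other adhesion receptors tested. In the matrix, collagen processing and protease lists no gene passed, and Vtn at 0.47, Crtap at 0.60 and Mmp28 at 0.68 had the smallest adjusted p.

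The air set was compared with the Room-air set because both are labelled as room air. In air 19 members were lower, where 12.0% of 16557 genes were lower and 22.7% passed in either direction, and 0 were higher with edgeR, 0 at an unadjusted p below 0.05 and 0 with DESeq2. The median over the members was −0.65, against 0.00 over all genes. The share of members called was 54.3%, beside 57.1% in Nic-free against Room-air, and these comparisons share the Room-air libraries. The set and whatever else differed between these libraries cannot be told apart.

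Timp3 differed most, at −1.19 ± 0.14 (adjusted p 4e-05), with 207, 198, 157 and 216 CPM in air 1 to 4 and 471, 361, 577 and 407 CPM in Room-air 1 to 4. Mmp14 stood at −1.09 ± 0.16 (adjusted p 0.00019), with 12.03, 7.99, 10.9 and 13.2 CPM in air and 26.8, 19.9, 26.4 and 23.9 CPM in Room-air, no overlap in either gene. Itga1 (−1.13), Lamc3 (−1.07), Hspg2 (−1.04), Itga6 (−0.89), Lamc1 (−0.87), Cd151 (−0.87), Nid1 (−0.86) and Itgb1 (−0.65) were also lower. Col4a1 was lower by 0.42 ± 0.11 (adjusted p 0.00955), but Col4a2 stood at −0.04 ± 0.09 (adjusted p 0.808). Timp4 at 0.38 (adjusted p 0.179) and Itgb4 at 0.14 (adjusted p 0.47) had estimates above 0 and did not pass.

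By class the lower members were 2 of 7 collagens, 6 of 9 laminin chains, 4 of 5 linkers, 2 of 4 inhibitors, 1 of 4 proteases and 4 of 6 receptors. Endothelial markers were lower in 10 of 15 (median −0.77), pericyte markers in 7 of 10 (median −0.64) and fibroblast and meningeal markers in 6 of 10 (median −0.65), and their part was not tested. Other basement membrane genes were lower in 8 of 18 and higher in 1, led by Dag1 (−1.17), Tinagl1 (−1.26) and Hmcn1 (−1.15), and other matrix genes lower in 12 of 30, led by Col14a1 (−1.23), Tnr (−0.63) and Col1a2 (−0.72). Collagen processing genes were lower in 6 of 14, led by P4ha2 (−0.60), Crtap (−0.76) and P4hb (−0.32). Other proteases and inhibitors were lower in 10 and higher in 1 of 28 tested, led by Plat (−1.18), Adam17 (−0.55) and Mmp28 (−1.07). Other adhesion receptors were lower in 13 of 25 tested, led by Vcl (−0.47), Itgb5 (−0.53) and Itga3 (−0.44).

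**Figure D5:**
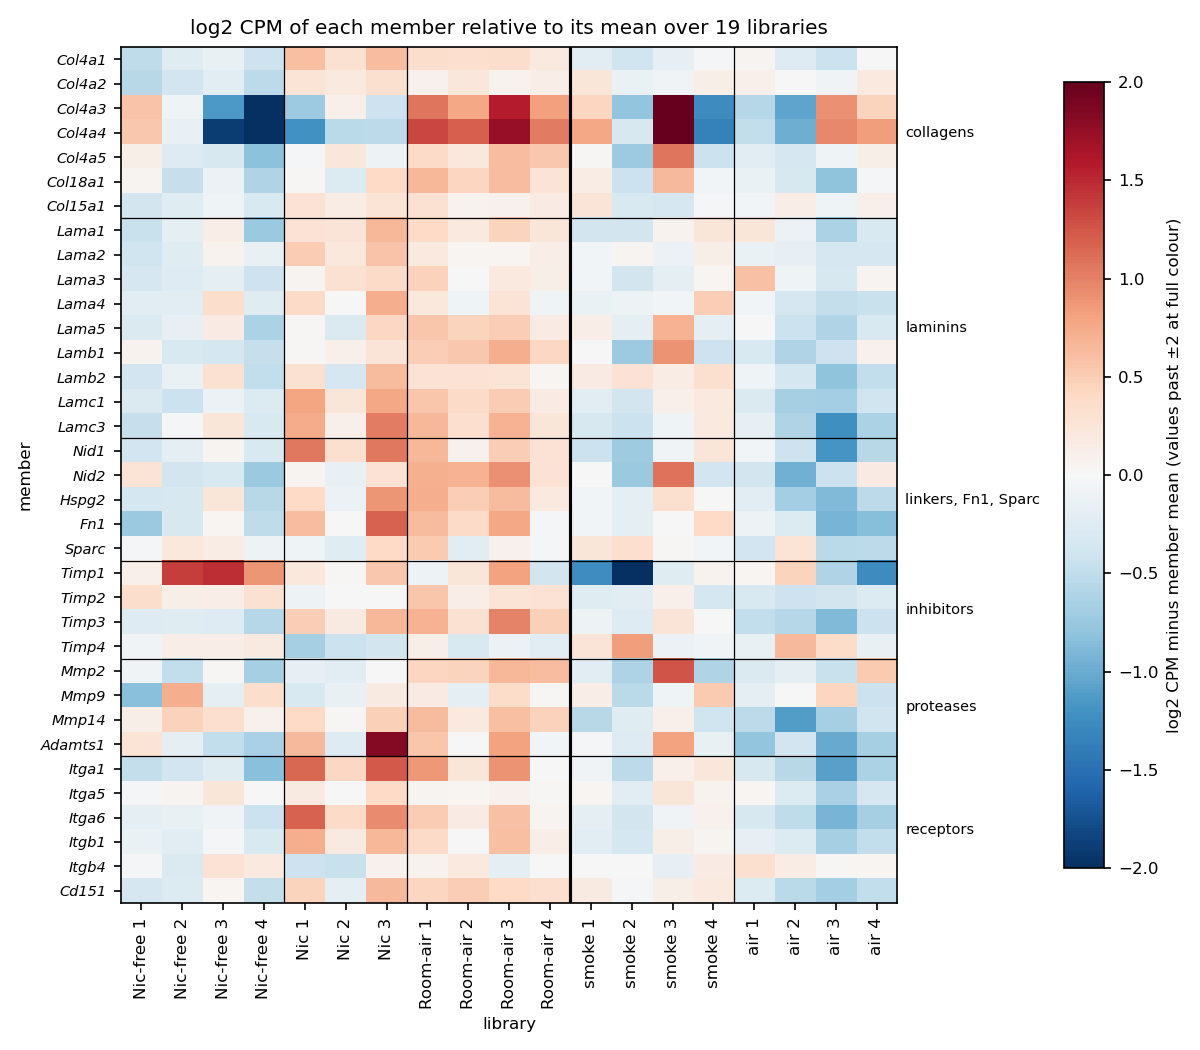
Log2 CPM of each member minus its mean over 19 libraries (colour, full at ±2), with libraries in columns by group and members in rows by class, and a thick line between Room-air and smoke. Room-air columns are red for most members and Nic-free and air columns blue, and smoke 3 stands out for Col4a3 and Col4a4.

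The effects of the exposures were then compared with each other, each against its own control set, in a fit of all 19 libraries. The smoke effect minus the Nic-free effect was higher for 17 members, where 11.2% of genes were higher, 10.3% lower and 21.5% passed in either direction, and lower for 0 with edgeR, 0 at an unadjusted p below 0.05 and 0 with DESeq2. The largest differences with a call were Itga1 at 1.57 ± 0.32 (adjusted p 0.00251), Timp3 at 1.51 ± 0.20 (adjusted p 0.000114), Nid2 at 1.38 ± 0.45 (adjusted p 0.0386), Fn1 at 1.35 ± 0.35 (adjusted p 0.0119) and Hspg2 at 1.29 ± 0.28 (adjusted p 0.00409). Leaving out a library gave 14 to 19 members. Endothelial markers were higher in 10 of 15 (median 0.90) and pericyte markers in 5 of 10 (median 0.64). Neuron markers were lower in 8 of 12 (median −0.76) and oligodendrocyte markers in 6 of 8 (median −0.86), and choroid and ependymal markers had a median of 1.80 with none called. Their part was not tested. By class, of the members, 3 of 7 collagens, 6 of 9 laminin chains, 3 of 5 linkers, 1 of 4 inhibitors and 4 of 6 receptors were higher.

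The smoke effect minus the Nic effect was higher for 3 members, where 2.78% of genes were higher, 2.80% lower and 5.59% passed in either direction. They are Timp3 at 0.80 ± 0.21 (adjusted p 0.0363), Timp2 at 0.57 ± 0.15 (adjusted p 0.0363) and Cd151 at 0.73 ± 0.20 (adjusted p 0.0406). With edgeR 0 members were lower, 0 at an unadjusted p below 0.05 and 0 with DESeq2. With any 1 of Room-air 1, Nic 1, Nic 2, air 1, air 2, air 3 and smoke 3 left out no member passed (edgeR, 0 in each case). In these fits 2.79, 0.0776, 0.316, 1.24, 2.3, 3.52 and 4.13% of all genes passed in either direction. Without Nic 3 there were 8 members, where 14.8% of all genes passed in either direction. Both differences hold the difference between the control sets in them, in which Timp3 stood at −1.19, Cd151 at −0.87 and Timp2 at −0.62.

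Over the 4 comparisons of exposures, 25 members passed in at least 1 and 10 in none. Of all genes tested, 21.8% passed in Nic-free against Room-air, 3.89% in Nic against Room-air, 24.8% in Nic against Nic-free and 1.60% in smoke against air. The share of all genes passing in at least 1 was not counted. The 10 members are Col4a3, Col4a4, Lama4, Sparc, Timp1, Mmp9, Mmp14, Adamts1, Itga5 and Itgb4. Sparc, the member of highest level, ranged from 561 to 701 CPM in Nic-free, 509 to 802 in Nic, 520.1 to 868 in Room-air, 584 to 766 in smoke and 418 to 731 in air, with all groups overlapping. Itgb4, of the integrin that anchors epithelia, kept within 25.2 to 37.7 CPM in Nic-free, 22.7 to 32.8 in Nic, 27.3 to 35.6 in Room-air, 27.8 to 34.7 in smoke and 31.4 to 38.5 in air. Mmp9 stayed at or below 2.74 CPM in every library and Timp1 at or below 1.88 CPM.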

How the data were processed

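Polyadenylated RNA was sequenced in 19 libraries, single-end and strand-specific per the labels' protocols. The authors deposited raw counts of reads for each Ensembl gene. The submitters' processing notes name STAR, HTSeq and mm10. Their versions and HTSeq's strand setting are not given in the sources used here, so genes that overlap on opposite strands have uncertain counts. The 5 summary lines that follow the 39179 genes of a file were kept out of totals, and reads with no feature were 28.7 to 45.2% of all. Symbols were found for 37607 IDs, and exon lengths and positions are from GENCODE M21 (GRCm38).

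The members and gene lists were chosen with earlier results of these data known. Values were computed from the counts as CPM and CPM per kb. Differences were tested two-sided with edgeR 4.0.16 in R 4.3.3 (TMM, filterByExpr, robust glmQLFit, glmQLFTest), and p-values were adjusted by Benjamini-Hochberg over every gene tested, with a threshold of 0.05. Nic-free, Nic and Room-air shared 1 fit of 11 libraries, smoke and air 1 of 8, and comparisons across these sets 1 of 19. Errors of log2 fold changes are standard errors worked back from the test, as the absolute log2 fold change over the square root of its F statistic. The fits were tested on simulated data. DESeq2 1.42.0, RLE factors, no filter, a replicate block, a fit of all libraries, left-out libraries and the other control set were alternatives. No pair of replicates agreed within counting error. Per-library values are given for the 10 members past the threshold in the most of the 4 exposure comparisons, ties by adjusted p, and for other lists the 3 genes of smallest adjusted p per comparison, of which 1 is not reported here. Other members with per-library values (Lamb2, Hspg2, Col4a3, Col4a4, Timp4 and Mmp14) were added after their values were seen.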

Additional observations from a re-analysis of the deposited data

Results flagged for a closer look

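In 8 of 140 sets of 4 libraries, 1 library lay apart from the other 3 by the gap test of Dixon at its 95% level, where chance gives about 7 (1 in 20). Col4a1 had 238 CPM in Room-air 4, against 264 to 266 CPM in the other Room-air libraries. Lama4 had 30.6 CPM in Nic-free 3, against 20.4 to 20.7 CPM in the other Nic-free libraries. Lama4 had 33.9 CPM in smoke 4, against 21.9 to 23.1 CPM in the other smoke libraries. Lamb2 had 170.4 CPM in Room-air 4, against 199 to 203 CPM in the other Room-air libraries. Sparc had 731 CPM in air 2, against 418 to 462 CPM in the other air libraries. Timp3 had 197 CPM in Nic-free 4, against 244 to 246 CPM in the other Nic-free libraries. Mmp2 had 16.6 CPM in smoke 3, against 4.53 to 6.02 CPM in the other smoke libraries. Adamts1 had 64.5 CPM in smoke 3, against 31.1 to 36.7 CPM in the other smoke libraries. Adamts1 and Mmp2 in smoke 3 stand beside the highest share of choroid and ependymal markers of all libraries, 2.69% of counts, whose part was not tested.

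The smoke effect and the Nic-free effect, each against its own control set, differed by a test of the difference itself (edgeR, all 19 libraries) for 17 members. In log2 units, smoke minus Nic-free, these were Col4a1 (0.55, adjusted p 0.0156), Col4a2 (0.50, adjusted p 0.0114), Col18a1 (1.15, adjusted p 0.00894), Lama2 (0.48, adjusted p 0.0295), Lama5 (1.08, adjusted p 0.0107), Lamb1 (1.11, adjusted p 0.0278), Lamb2 (0.99, adjusted p 0.0131), Lamc1 (1.10, adjusted p 0.000617), Lamc3 (1.06, adjusted p 0.0208), Nid2 (1.38, adjusted p 0.0386), Hspg2 (1.29, adjusted p 0.00409), Fn1 (1.35, adjusted p 0.0119), Timp3 (1.51, adjusted p 0.000114), Itga1 (1.57, adjusted p 0.00251), Itga6 (0.97, adjusted p 0.0045), Itgb1 (0.74, adjusted p 0.012) and Cd151 (1.24, adjusted p 0.000323). The smoke effect and the Nic effect differed for 3 members, Timp2 (0.57, adjusted p 0.0363), Timp3 (0.80, adjusted p 0.0363) and Cd151 (0.73, adjusted p 0.0406).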

How the results depend on the processing

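The alternatives were DESeq2, RLE factors, no filter on low counts, a replicate block, a fit of all 19 libraries, each library left out in turn and the other room air set as control. With the air set, Nic-free had 2 members higher, 1 lower and 699 genes called, and the log2 fold change took the other sign in 23 of 35 members. The 15 of these that passed with at least 1 control set were Col18a1 (0.0381), Lama5 (0.12), Lamb1 (0.0347), Lamc1 (0.23), Nid1 (0.31), Nid2 (0.10), Hspg2 (0.35), Fn1 (0.15), Timp2 (0.57), Timp3 (0.26), Mmp14 (0.91), Itga1 (0.16), Itga6 (0.39), Itgb1 (0.22) and Cd151 (0.25). Nic had 17 higher, 2 lower and 4961 genes, and 11 of 35 took the other sign, of which Hspg2 (0.92), Timp3 (0.97), Mmp14 (0.88) and Cd151 (0.76) passed with at least 1 set. With the Room-air set, smoke had 0 higher, 4 lower and 1027 genes, and 25 of 34 took the other sign, of which Hspg2 (−0.44), Timp2 (−0.44), Timp3 (−0.60), Mmp14 (−0.68) and Cd151 (−0.25) passed with at least 1 set. The cause of these changes was not tested. In no other alternative did a called member change sign.

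With each library left out in turn, Nic-free against Room-air gave 0 to 1 members higher, 13 to 21 lower and 2186 to 4353 genes. Nic against Room-air gave 0 to 2 higher, 0 to 7 lower and 0 to 2956 genes, and Nic against Nic-free 11 to 19 higher, 1 to 3 lower and 2401 to 4679 genes. Smoke against air gave 0 to 3 higher and 1 to 192 genes, and air against Room-air 14 to 21 lower and 2415 to 4234 genes. Smoke minus Nic gave 0 to 8 higher and 13 to 2476 genes, and smoke minus Nic-free 14 to 19 higher and 2581 to 4107 genes. Fewer libraries stood in each of these fits. DESeq2 gave 6 lower and 1645 genes in Nic against Room-air, 9 higher and 924 genes in smoke, and 5 higher and 1754 genes for smoke minus Nic. Without the filter, 2 members were lower in Nic, 1 lower in Nic against Nic-free, and 7 higher in smoke among 466 genes. The fit of all libraries gave 0 lower and 348 genes in Nic, and 2 higher and 519 genes in smoke.

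Equal replicate numbers are not labelled as shared animals or days. Deviations of same-numbered libraries correlated at −0.29 to 0.28 over Nic-free, Nic and Room-air and −0.31 to 0.18 over smoke and air. For libraries with different numbers these were −0.39 to 0.29 and −0.29 to 0.43. So few pairs cannot decide whether equal numbers stand for a shared day or animal. With a replicate block, 1 member was higher in Nic-free, 3 were lower in Nic, and 0 were higher among 5 genes called in smoke. Smoke and air libraries are the shallowest, and Timp1 was not tested there.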

Other observations

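Ratios within a library show how the balance of related chains varied, and these 4 were picked after values were seen. The CPM ratio of Col4a2 to Col4a1, which lie head to head and encode partners of a collagen trimer, was 1.20 to 1.27 in Nic-free, 1.05 to 1.22 in Nic and 1.09 to 1.28 in Room-air. It was 1.41 to 1.80 in smoke and 1.36 to 1.68 in air. The 8 libraries of smoke and air lay above the other 11, and within each of these sets the groups overlapped. The ratio of Timp3 to Timp2 was 0.67 to 0.96 in Nic-free, 1.41 to 1.95 in Nic and 1.37 to 2.02 in Room-air, so that Nic-free lay below both others. In smoke it was 1.21 to 1.60 and in air 0.86 to 1.11, without overlap. Lamb1 over Lamc1 was 0.54 to 0.82 in Nic-free, 0.38 to 0.58 in Nic and 0.61 to 0.76 in Room-air, with Nic below Room-air. It was 0.42 to 1.12 in smoke, highest in smoke 3, and 0.64 to 0.90 in air. Col4a4 over Col4a3 was 0.38 to 0.63 in Nic-free, 0.41 to 0.59 in Nic and 0.71 to 0.86 in Room-air, both exposures below Room-air. It was 0.60 to 0.89 in smoke and 0.66 to 0.83 in air, overlapping.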
